A study of Mus musculus with 4 samples.

Results

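The creatine kinase system and myoglobin were followed in the injured neonatal mouse heart through 6 genes taken by symbol from the 32285 features measured: the creatine kinases Ckm, Ckmt2 and Ckb, myoglobin (Mb), the creatine transporter Slc6a8 and the creatine-forming enzyme Gamt. RNA was captured with the 10x Genomics Visium assay, which lays a tissue section over an array of barcoded spots, each a small region that can hold several cells of different types. The 4 groups were hearts of ICR mice, 1 section of 10 µm from each of 1, 4, 7 and 14 days (d1, d4, d7 and d14) after a cold injury. In every one of them a pre-cooled probe was held against the left ventricular apex for 5 seconds at postnatal day 1, so the hearts were at postnatal days 2, 5, 8 and 15. No uninjured heart is among the labels, time after injury and age cannot be told apart, and the labels give no sex. With 1 section per day no difference has a replicate check, and p-values are not given. All 3 comparisons with d1 share the d1 section.

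Creatine kinase moves the phosphate of ATP onto creatine and back, which lets phosphocreatine carry and buffer energy between mitochondria and the myofibrils. Muscle holds a cytosolic form, encoded by Ckm and bound in part at the M-band of the sarcomere, and a sarcomeric mitochondrial form, encoded by Ckmt2 and paired with the adenine nucleotide translocator. The brain-type cytosolic form, encoded by Ckb, is known from the early heart, smooth muscle, nerve and other cells. Creatine is made from arginine and glycine by Gatm and Gamt, chiefly outside the heart, and cardiomyocytes take it up through Slc6a8. Myoglobin is the oxygen-binding haem protein of cardiac and oxidative skeletal muscle.

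On GRCm38, the annotation GENCODE vM21 places Ckm at chr7:19404776-19422841 on the plus strand and Ckmt2 at chr13:91853387-91876885 on the minus strand. Ckb lies at chr12:111669361-111672338 and Mb at chr15:77015487-77050670, both on the minus strand. Slc6a8 lies at chrX:73673150-73682502 on the plus strand and Gamt at chr10:80258151-80261012 on the minus strand. RefSeq promoter windows (GRCm38.p6, 250 bases before to 50 bases after a transcription start) were found for 5 of the 6 genes, all but Slc6a8. The windows of Ckmt2 and Mb, the members with the largest increase by d14, are shown beside those of Ckm and Ckb, which did not increase as much or were lower. They lie at chr13:91876836-91877135 (minus strand), chr15:77022678-77022977 (minus strand; of 3 windows listed for Mb, the one with the most GENCODE starts), chr7:19410844-19411143 (plus strand) and chr12:111672289-111672588 (minus strand). Capitals mark every match to a searched motif.
Ckmt2: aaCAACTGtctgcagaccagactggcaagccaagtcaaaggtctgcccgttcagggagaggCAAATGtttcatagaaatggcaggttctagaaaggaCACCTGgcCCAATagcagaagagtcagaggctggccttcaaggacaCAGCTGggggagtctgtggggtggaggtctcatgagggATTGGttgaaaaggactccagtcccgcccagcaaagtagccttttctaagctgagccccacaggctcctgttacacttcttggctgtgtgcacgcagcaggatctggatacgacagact
Mb: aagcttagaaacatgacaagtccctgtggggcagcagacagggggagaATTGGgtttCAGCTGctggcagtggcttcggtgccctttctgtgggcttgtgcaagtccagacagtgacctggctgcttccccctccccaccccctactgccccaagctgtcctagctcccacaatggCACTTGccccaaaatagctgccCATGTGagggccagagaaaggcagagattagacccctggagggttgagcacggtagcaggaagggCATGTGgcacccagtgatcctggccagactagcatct
Ckm: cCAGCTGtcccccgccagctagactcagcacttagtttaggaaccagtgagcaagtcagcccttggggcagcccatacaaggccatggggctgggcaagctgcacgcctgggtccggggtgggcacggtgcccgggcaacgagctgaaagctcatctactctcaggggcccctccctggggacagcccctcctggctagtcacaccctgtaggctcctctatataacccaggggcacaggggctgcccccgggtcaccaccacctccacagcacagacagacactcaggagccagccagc
Ckb: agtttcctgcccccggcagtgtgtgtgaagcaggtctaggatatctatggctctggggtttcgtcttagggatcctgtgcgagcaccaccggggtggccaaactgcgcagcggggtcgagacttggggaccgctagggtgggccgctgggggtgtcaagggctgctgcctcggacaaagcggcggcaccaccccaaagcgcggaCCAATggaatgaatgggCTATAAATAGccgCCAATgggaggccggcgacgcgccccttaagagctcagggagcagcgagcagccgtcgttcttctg

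The motifs searched on both strands were the E-box CANNTG, bound by basic helix-loop-helix factors, the nuclear receptor half-site AAGGTCA, the TATA box spelled TATAAA, the CCAAT box, the MEF2 consensus and the CArG box of serum response factor. E-boxes were matched 4 times in the Ckmt2 window, 4 times in that of Mb and 1 time in that of Ckm, and this motif is in 72.3% of all 32851 promoter windows of the same length. The Ckb window held a TATA box, found in 13.6% of windows, overlapping a match to the MEF2 consensus, found in 3.19%, and a CCAAT box on both sides of it. The CCAAT box, found in 37.4% of windows, was matched 2 times in Ckmt2, 2 times in Ckb and 1 time in Mb. The half-site (4.72% of windows) and the CArG box (1.63%) were matched in none of the 5 windows. A match is a description of these letters and not a binding site.

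Between 445 and 1175 spots with at least 500 unique molecular identifiers (UMIs, each standing for 1 captured RNA molecule) were kept per section. The matrices held 3419864 UMIs at d1, 6187656 at d4, then 6358894 at d7 and 4741982 at d14, and the median per spot was 7810, 7998, 8028 and 3770 UMIs. Levels are given as CPM, the UMIs of a gene per 1000000 UMIs of the pooled spots without haemoglobin and mitochondrially encoded genes. Since the assay counts 3′ molecules, CPM was not divided by gene length. Intervals are 95% and cover counting error only. All 12 genes of a cardiomyocyte list were detected in every section and took 3.68% to 4.75% of UMIs. Skeletal muscle genes other than Eno3, which nearly every spot holds, had 42, 60, 202 and 61 UMIs in the 4 sections, and Ucp1 of brown fat had 1 UMI in all. Of the 1328 spot barcodes, 247 occurred in all 4 matrices, as array positions do. The inactive X transcript Xist had 1 UMI at d7 and 158 to 341 in the other sections, whereas Y-linked Eif2s3y was counted 460 times at d7 and was at 0 elsewhere. In every comparison of d7 with another day, this difference between animals and the day cannot be told apart.

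Over the whole section, Ckmt2 and Mb were higher at each later day, Ckm was lowest at d4 and highest at d14, and Ckb was lowest at d14. With haemoglobin and mitochondrially encoded genes left out, Mb was among the most abundant transcripts. It ranked 8 by UMI count at d1, 5 at d4 and d7 and 2 at d14. The 6 genes together took 1.06% of UMIs at d1, 1.13% at d4, followed by 1.41% at d7 and 2.34% at d14. Mitochondrially encoded genes, left out of CPM, took 5.57% of UMIs at d1, 5.17% at d4, then 11.6% at d7 and 8.54% at d14. With CPM over all genes, these included, the d14 level was 5.63 times that of d1 for Ckmt2 and 2.40 times for Mb. In bulk spots, fewer cells of a type and less RNA per cell cannot be told apart.

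Ckm, the cytosolic muscle enzyme, was at 2942 CPM at d1, 1633 at d4, then 2443 at d7 and 3554 at d14. The d4 section held the lowest level and the d14 section the highest, and none of the 4 counting intervals overlapped. The d4 level was 0.555 of the d1 level (0.539 to 0.571), which placed Ckm 135th from the bottom of 7276 genes measured in that pair. The d7 level was 0.830 of d1 (0.809 to 0.853) and the d14 level 1.21 times d1 (1.18 to 1.24). Between neighbouring days, the ratio was 1.496 for d7 over d4 (1.46 to 1.54) and 1.45 for d14 over d7 (1.42 to 1.49).

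Ckmt2, the mitochondrial enzyme of the sarcomere, was at 399 CPM at d1, 532 at d4, then 766 at d7 and 2336 at d14. Its levels rank in the order of the days, with the largest step between d7 and d14. Against d1, the ratio was 1.33 at d4 (1.25 to 1.42), followed by 1.92 at d7 (1.80 to 2.04) and 5.85 at d14 (5.52 to 6.21). The d14 ratio was the 68th highest of 6982 genes. The d14 level was 3.05 times that of d7 (2.94 to 3.16), the 120th highest of 6864. In single spots, the median Ckmt2 level was 343 CPM at d1 (0 to 2185), 526 at d4 (0 to 1689), then 738 at d7 (0 to 2424) and 2313 at d14 (0 to 6387), so the d14 median lay above the highest spot of d1 and of d4.

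Ckb, the brain-type enzyme, was at 234 CPM at d1, 255 at d4, then 197 at d7 and 164 at d14. The d4 and d1 levels did not differ beyond counting error, with a ratio of 1.09 (0.995 to 1.19), and the sign of this difference turned under TMM scaling, where it was 0.955. The d7 level was 0.841 of d1 (0.766 to 0.924) and the d14 level 0.702 of d1 (0.632 to 0.778). The d14 level was 0.834 of d7 (0.758 to 0.918). The other mitochondrial creatine kinase gene, Ckmt1, known as the ubiquitous form, was counted with 1, 6, 3 and 2 UMIs and was near absent from these sections.

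Mb was at 6925 CPM at d1, 8765 at d4, followed by 10559.8 at d7 and 17262 at d14. Each later section stood above the one before it. The ratio to d1 was 1.27 at d4 (1.25 to 1.29), then 1.52 at d7 (1.502 to 1.55) and 2.49 at d14 (2.46 to 2.53), the last being 302nd of 6982 genes. Every kept spot held Mb. Its level in single spots ran from 791 to 12172 CPM at d1 (median 6865), 234 to 15642 at d4 (median 9722), 629 to 18036 at d7 (median 10812) and 3118 to 28005.5 at d14 (median 17607). The d14 median was above the highest spot at d1 and d4.

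In the 5 pairs of days compared, the 2 members of creatine supply differed by less than 2-fold. Slc6a8, the transporter, was at 93.7 CPM at d1, 117 at d4, then 120.5 at d7 and 108 at d14, and its neighbouring days d4, d7 and d14 did not differ beyond counting error. Its ratio to d1 was 1.25 at d4 (1.09 to 1.44), followed by 1.29 at d7 (1.12 to 1.48) and 1.15 at d14 (0.991 to 1.33). Gamt, the methyltransferase that completes creatine, was scarce, with 59, 161, 114 and 53 UMIs or 18.3, 27.5, 20.5 and 12.3 CPM. Its d4 level was 1.51 times that of d1 (1.11 to 2.06) and its d14 level 0.601 of d7 (0.426 to 0.840). Its highest and lowest days, d4 and d14, lie further apart and were not among those pairs. Gatm, the amidinotransferase before it, was at 12.1 to 15.4 CPM in the 4 sections.

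**Figure D1:**
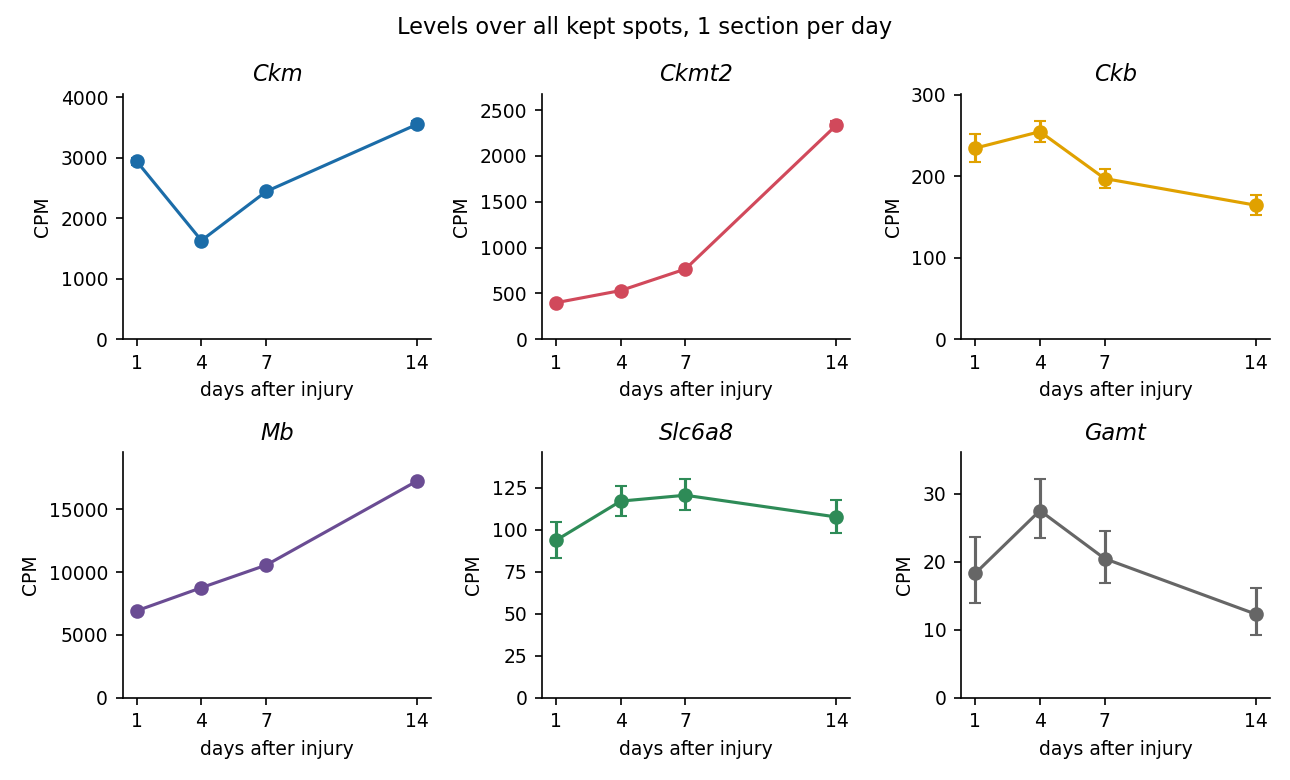
CPM of each of the 6 genes (y axis, from 0) against days after injury (x axis), over all kept spots of 1 section per day; bars are exact Poisson 95% intervals for counting error. Ckmt2 and Mb are highest at d14 with 2336 and 17262 CPM, Ckm is lowest at d4 with 1633 CPM, and Ckb and Gamt are lowest at d14.

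To be called, a gene had to reach 20 CPM in either section of a pair, with a ratio of 2 or more (higher) or of 0.5 or less (lower) and an interval without 1. At d4 no member passed against d1, where 4.69% of the genes measured were called higher and 1.44% lower. At d7 again none of the 6 passed against d1, beside 3.45% of genes higher and 2.85% lower, with Ckmt2 just under the limit at 1.92. At d14, 2 of the 5 members measured were called higher than at d1, Ckmt2 and Mb, and none lower, beside 7.32% of genes higher and 6.07% lower; Gamt did not reach the minimum. The pair d7 and d4 gave no member, beside 0.723% of genes higher and 1.51% lower. The pair d14 and d7 gave 1 of 6 members higher, Ckmt2, and none lower, beside 5.04% and 3.51% of genes. The median log2 ratio of the members measured was 0.33 at d4, then 0.26 at d7 and 0.27 at d14 against d1, beside 0.17, -0.03 and -0.06 over all genes. TMM scaling moved the median of all genes to -0.01 for d4 over d1, and with it Ckm passed the limit there at 0.488 of d1. For d7 over d4 it moved that median to 0.01, beside -0.20 without it.

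The makeup of the creatine kinase pool does not depend on the section total. Ckm gave 82.3% of creatine kinase UMIs at d1 (81.6 to 83.0), 67.5% at d4 (66.7 to 68.2), then 71.7% at d7 (71.1 to 72.3) and 58.7% at d14 (58.1 to 59.3). Ckmt2 gave 11.2% at d1 (10.6 to 11.8), 22.0% at d4 (21.3 to 22.7), followed by 22.5% at d7 (21.9 to 23.1) and 38.6% at d14 (38.0 to 39.2). Its share was higher at d14 than on every other day, while d4 and d7 did not differ beyond counting error. Ckb gave 6.56% at d1 (6.11 to 7.02), 10.5% at d4 (10.0 to 11.0), then 5.79% at d7 (5.46 to 6.13) and 2.72% at d14 (2.52 to 2.92), so its share was highest at d4. The 4 creatine kinase genes summed to 3576 CPM at d1, 2420 at d4, then 3407 at d7 and 6055 at d14, lowest at d4 and highest at d14. For each Ckmt2 UMI there were 7.37 of Ckm at d1 (6.95 to 7.82), 3.07 at d4 (2.95 to 3.20), followed by 3.19 at d7 (3.08 to 3.30) and 1.52 at d14 (1.48 to 1.56). For each Ckb UMI there were 1.70 of Ckmt2 at d1 (1.55 to 1.86), 2.09 at d4 (1.96 to 2.22), then 3.89 at d7 (3.64 to 4.16) and 14.2 at d14 (13.2 to 15.3). Against both Ckm and Ckb, Ckmt2 was thus most frequent at d14. For each Ckm UMI there were 2.35 of Mb at d1 (2.30 to 2.41), 5.37 at d4 (5.25 to 5.49), then 4.32 at d7 (4.24 to 4.40) and 4.86 at d14 (4.77 to 4.94), lowest at d1 and highest at d4.

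The levels were also set against the other cardiomyocyte transcripts of the same spots, as UMIs per 1000 UMIs of the 12-gene cardiomyocyte list, which holds sarcomere genes such as Actc1, Tnnt2 and Myl3 and no member. Ckmt2 had 8.73 at d1, 14.5 at d4, then 17.4 at d7 and 49.1 at d14, and its d14 value was 5.63 times that of d1 (5.31 to 5.97). Mb had 152 at d1, 238 at d4, followed by 240 at d7 and 363 at d14, and here d4 and d7 did not differ beyond counting error, with a ratio of 1.01 (0.994 to 1.02). Ckm had 64.4 at d1, 44.4 at d4, then 55.5 at d7 and 74.8 at d14. Its d4 value was 0.690 of d1 (0.670 to 0.710), nearer to 1 than the ratio of CPM, since the list itself took 3.68% of UMIs at d4 and 4.57% at d1. The d14 value of Ckm was 1.16 times d1 (1.13 to 1.19), and this turned to a log2 ratio of -0.041 when the geometric mean of the list stood in for its sum. Ckb had 5.13 at d1, 6.93 at d4, then 4.48 at d7 and 3.46 at d14.

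Where matrix genes were abundant, transcripts of Ckm, Ckmt2 and Mb were fewer on every day, and those of Ckb were more from d4 on. Matrix-rich spots were the 10% of kept spots with the highest portion of UMIs in 18 matrix genes (collagens, Fn1, Postn, Tnc, Sparc and others), which do not include any member. There were 45, 67, 78 and 118 such spots, with a median matrix share of 1.53%, 3.42%, 3.45% and 2.41%, against 0.383%, 0.701%, 0.684% and 0.632% in the other 400, 595, 696 and 1057 spots. Their median depth was 6133, 11808, 6416 and 3869 UMIs, against 7958.5, 7493, 8119 and 3753 in the others. The cardiomyocyte list summed to 32876, 20969, 23207 and 31043 CPM in matrix-rich spots, against 46982, 39108, 45981 and 49395 CPM in the others. Since the spots of a section come from 1 heart, they were not counted as replicates.

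Ckmt2 was the member furthest below the rest of the section. In matrix-rich spots it was at 146 CPM at d1, against 425 in the others, and at 142 CPM at d4, against 589. At d7 it was at 296 CPM in matrix-rich spots, against 809.9 in the others, and at d14 at 1224 CPM, against 2462. The ratios were 0.344 (0.248 to 0.466), 0.242 (0.197 to 0.293), 0.366 (0.307 to 0.433) and 0.497 (0.455 to 0.543), all past the 2-fold limit, the last just inside it. That d14 call was lost, for example, with CPM over all genes or without the matrix genes. On each of the 4 days its ratio was lower than that of all 12 genes of the cardiomyocyte list, whose medians were 0.682, 0.454, 0.499 and 0.621. Per 1000 cardiomyocyte UMIs, Ckmt2 had 4.44 in matrix-rich spots at d1 against 9.04 in the others, 6.79 against 15.1 at d4, 12.8 against 17.6 at d7 and 39.4 against 49.8 at d14. These ratios were 0.491 (0.354 to 0.666), 0.451 (0.368 to 0.546), 0.724 (0.608 to 0.857) and 0.791 (0.724 to 0.863).

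Mb was at 4210 CPM in matrix-rich spots at d1, against 7198 in the others, a ratio of 0.585 (0.552 to 0.619). At d4 it was at 2595 CPM against 9676, a ratio of 0.268 (0.256 to 0.281), below all 12 cardiomyocyte list genes. At d7 it was at 4923 CPM against 11083 (0.444, 0.426 to 0.463) and at d14 at 11444 CPM against 17919 (0.639, 0.620 to 0.657). Per cardiomyocyte UMI the ratio was 0.836 at d1 (0.789 to 0.885), 0.5003 at d4 (0.478 to 0.523), followed by 0.880 at d7 (0.844 to 0.917) and 1.02 at d14 (0.987 to 1.05), so that at d14 Mb did not differ from the list beyond counting error.

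Ckm was at 1844 CPM in matrix-rich spots at d1 against 3053 in the others, at 708 against 1769 at d4, at 1231 against 2556 at d7 and at 2329 against 3692 at d14. The ratios of 0.604 (0.553 to 0.659), 0.400 (0.366 to 0.437), 0.482 (0.442 to 0.523) and 0.631 (0.591 to 0.672) lay within the range of the cardiomyocyte list genes on every day. Per cardiomyocyte UMI, Ckm was at 0.863 of the others at d1 (0.790 to 0.941), 0.746 at d4 (0.682 to 0.814), then 0.954 at d7 (0.877 to 1.04) and 1.00 at d14 (0.941 to 1.07).

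Ckb went the other way after d1. In matrix-rich spots it was at 200.3 CPM at d1, against 238 in the others, at 358 CPM against 239 at d4, at 283 CPM against 189 at d7 and at 325 CPM against 146 at d14. The ratios were 0.842 (0.634 to 1.10), 1.49 (1.305 to 1.71), 1.498 (1.24 to 1.80) and 2.22 (1.83 to 2.67), and the last passed the 2-fold limit. As a share of creatine kinase UMIs, Ckb gave 9.15% in matrix-rich spots at d1 against 6.40% in the others, 29.6% against 9.21% at d4, 15.6% against 5.32% at d7 and 8.38% against 2.32% at d14. The summed macrophage, smooth muscle, epicardial, atrial and Schwann cell lists were also higher in matrix-rich spots on each day, but not every cell type list was. The Schwann cell list rested on only 13 to 67 UMIs per section. The summed endothelial list stood at a ratio of 1.05 at d1, 0.757 at d4, then 0.843 at d7 and 1.05 at d14. The 11 macrophage list genes, all detected in every section, summed to 2557, 1455, 1370.2 and 2247 CPM in matrix-rich spots, against 287, 226, 339 and 763 in the others. Their ratio was largest at d1 and smallest at d14. The 7 smooth muscle list genes, also all detected, summed to 2248, 4512, 2243 and 2142 CPM, against 1878, 1275, 1094 and 1170. In the 10% of spots richest in the macrophage list, the ratio of Ckb to the other spots was 0.873 at d1 (0.651 to 1.15), 1.48 at d4 (1.28 to 1.71), then 0.995 at d7 (0.808 to 1.21) and 1.97 at d14 (1.61 to 2.40). In the 10% richest in the smooth muscle list it was 1.09 at d1 (0.814 to 1.42), 1.55 at d4 (1.35 to 1.76), followed by 1.19 at d7 (0.969 to 1.44) and 1.91 at d14 (1.55 to 2.33). With either list, the d1 and d7 intervals included 1. These sets share spots, 43 of 67 between macrophage-rich and matrix-rich at d4 and 50 of 118 at d14, and the part of either cell type in the Ckb level was not tested.

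Slc6a8 was at 119 CPM in matrix-rich spots at d1 against 91.1 in the others, at 73.2 against 123 at d4, at 101 against 122 at d7 and at 126 against 105 at d14. Only the d4 ratio, 0.593 (0.441 to 0.781), had an interval below 1, and none of the 4 intervals lay wholly above 1. Per cardiomyocyte UMI, Slc6a8 was instead higher in matrix-rich spots on 3 days, with a ratio of 1.86 at d1 (1.27 to 2.66), 1.11 at d4 (0.823 to 1.46), then 1.64 at d7 (1.20 to 2.21) and 1.90 at d14 (1.41 to 2.52). The list sum itself was 0.700, 0.536, 0.505 and 0.628 of that in the others. A gene with an even CPM therefore stands above 1 on this scale. Gamt had few UMIs in matrix-rich spots, 2, 30, 17 and 14 against 57, 131, 97 and 39 in the others. Its ratio was 1.55 at d4 (1.01 to 2.32), then 1.89 at d7 (1.06 to 3.18) and 3.18 at d14 (1.59 to 5.98), and the last passed the limit. Gatm, the enzyme before it, was called higher in matrix-rich spots on all 4 days, at 30.6, 39.9, 31.7 and 32.0 CPM against 11.3, 8.05, 13.9 and 10.3 in the others. So were 11.9%, 11.9%, 14.9% and 14.8% of all genes. Gatm was scarce too, with 42, 71, 86 and 54 UMIs in the whole sections, so these calls rest on few UMIs.

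By the same rule, with at least 20 UMIs in both groups together, 1 of 5 members measured was lower in matrix-rich spots at d1, beside 2.88% of genes lower and 11.9% higher. At d4, 3 of 6 members (Ckm, Ckmt2 and Mb) were lower and none higher, beside 7.53% of genes lower and 11.9% higher, and 7 of the 12 cardiomyocyte genes were lower. At d7 the same 3 of 6 members were lower and none higher, beside 4.2% of genes lower and 14.9% higher, and 6 of 12 cardiomyocyte genes were lower, or 3 with CPM over all genes. Ckm also lost its d7 call with CPM over all genes, while Ckmt2 and Mb kept theirs. At d14, 1 of 6 was lower and 2, Ckb and Gamt, were higher, beside 2.29% and 14.8% of genes. With the top 20% of spots in place of the top 10%, no member was called lower at d1, d7 or d14. Only 1.45%, 0.335% and 0.580% of all genes were called lower there by that rule. At d4, 2 of 6 members stayed lower, beside 2.27% of genes. At d7, 143 of the 202 skeletal muscle UMIs other than Eno3 lay in 16 matrix-rich spots. Without every spot that holds such a UMI, the d7 log2 ratio was -0.89 for Ckm, beside -1.05 with them, and -0.96 for Mb, beside -1.17, and of the members only Ckmt2 stayed past the limit at -1.08.

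**Figure D2:**
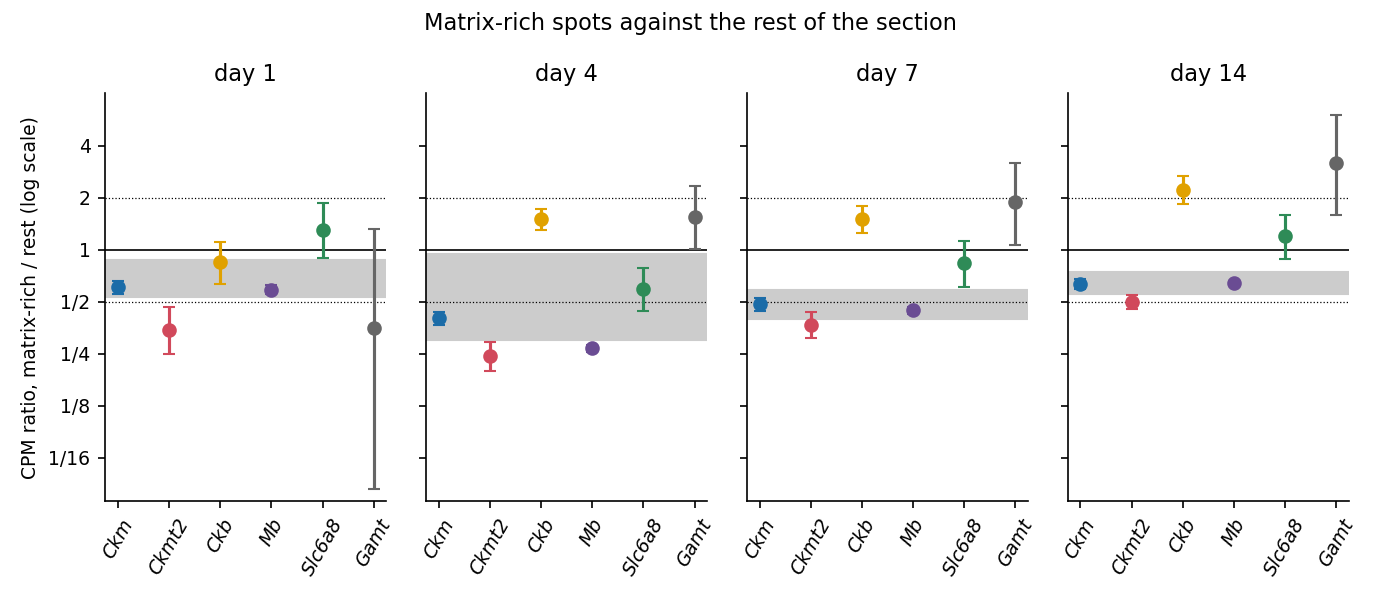
Ratio of CPM in matrix-rich spots to CPM in the other spots (y axis, log scale) for each member in each section; bars are exact 95% counting intervals, the grey band spans the 12 cardiomyocyte list genes and dotted lines mark the 2-fold limits. Ckmt2 lies below the band in all 4 panels, from 0.242 at d4 to 0.497 at d14, while Ckb lies above 1 at d4, d7 and d14.

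**Figure D3:**
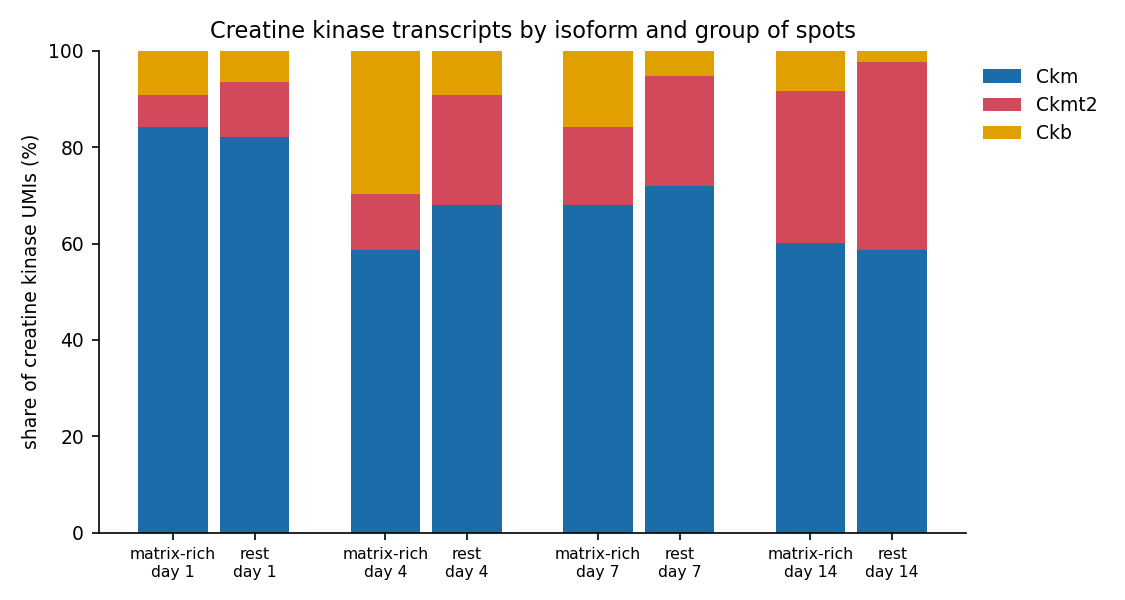
Share of creatine kinase UMIs from Ckm, Ckmt2 and Ckb (y axis, percent) in matrix-rich spots and in the rest of each section (x axis); Ckmt1, at 1 to 6 UMIs per section, is too small to be seen. The Ckb share is larger in matrix-rich spots on each day, with 29.6% against 9.21% at d4, and the Ckmt2 share is smaller.

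**Figure D4:**
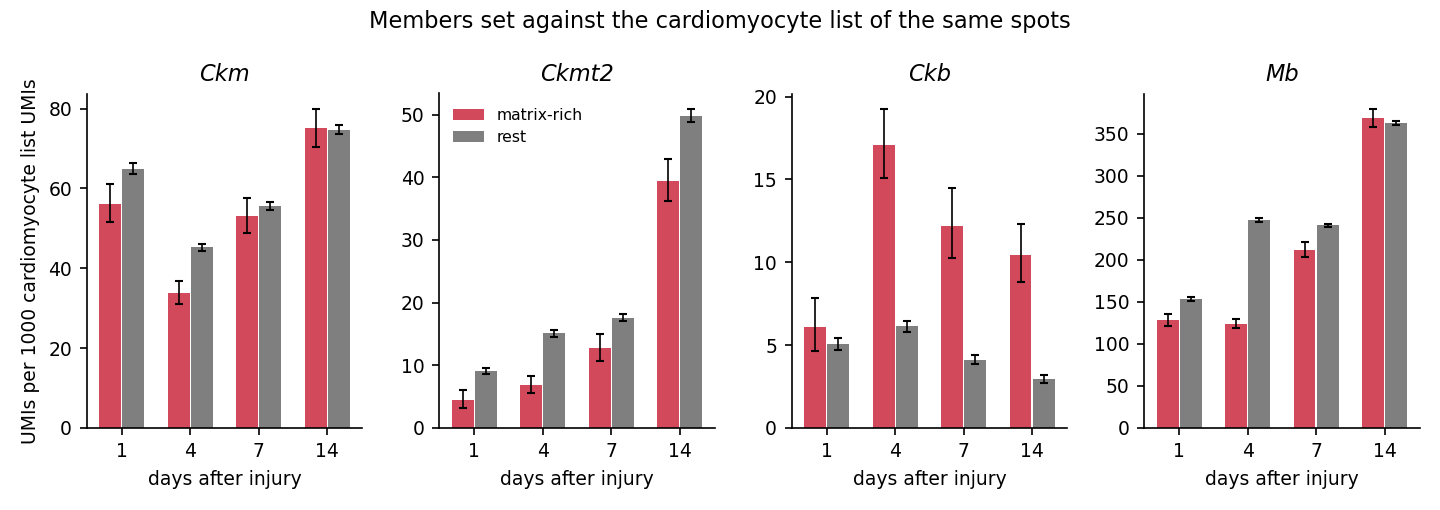
UMIs per 1000 cardiomyocyte list UMIs (y axis, from 0) in matrix-rich spots and in the rest by day (x axis), with 95% counting intervals. At d14 the intervals of Ckm and Mb overlap between the 2 groups of spots, Ckmt2 is lower in matrix-rich spots on all 4 days and Ckb is higher from d4 on.

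The spots of each section were also ranked by matrix share and cut into 5 groups of like size, and the muscle genes stood lowest in the top group. Ckm at d4 was at 1927, 1918, 1799, 1704 and 984 CPM from the lowest group to the highest. Mb at d4 was at 10985, 10394, 9964, 8975 and 4653 CPM, and at d14 at 19057, 18201, 17998, 17581 and 13560 CPM. Ckmt2 at d14 was at 2646, 2408, 2495, 2527 and 1616 CPM, with no order among its first 4 values. Ckb at d14 was at 135, 130, 125, 156 and 276 CPM, highest in the top group, whereas at d1 the top group held its lowest value, 180 CPM. The cardiomyocyte list took 4.13% of UMIs in the lowest group at d4 and 2.67% in the highest.

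**Figure D5:**
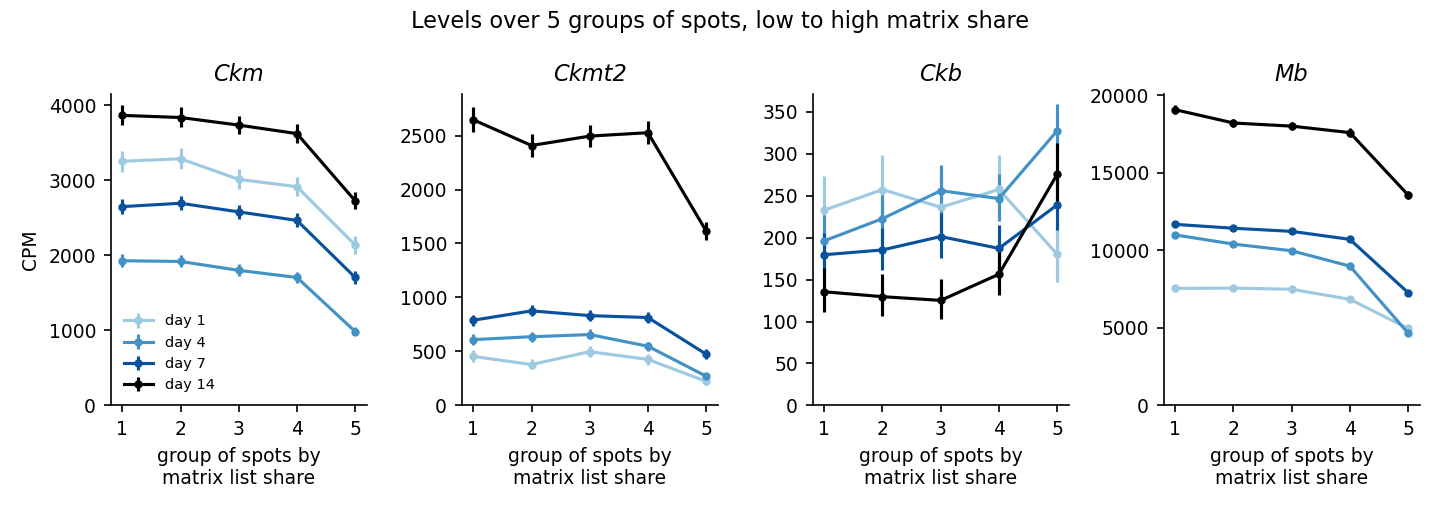
CPM (y axis, from 0) of Ckm, Ckmt2, Ckb and Mb over 5 groups of each section's spots ranked from low to high matrix share (x axis), 1 line per day, with Poisson 95% intervals. The muscle genes are lowest in the last of the 5 groups on every day, and Ckb is highest there at d4, d7 and d14.

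Across spots thinned to 2500 UMIs each, Spearman's rho between Ckm and Mb was 0.260 at d1 (402 spots), 0.267 at d4 (659), followed by 0.220 at d7 (769) and 0.283 at d14 (960). Without matrix-rich spots it was 0.177, 0.136, 0.012 and 0.129. Among 317 genes with at least 500 thinned UMIs on every day, those most like Mb by the mean rho over the 4 sections were Fabp3, a fatty acid carrier of heart muscle, at 0.388, the ventricular light chain Myl2 at 0.375 and the heart adenine nucleotide translocator Slc25a4 at 0.368. Those most like Ckm were Myl2 at 0.275, Fabp3 at 0.260 and Myl3 at 0.245. Without matrix-rich spots, where 282 genes qualified, the first 3 for Ckm were Myl3 at 0.139, Fabp3 at 0.108 and Actc1 at 0.107, with Myl2 10th at 0.0771, and those for Mb were Fabp3 at 0.238, Myl3 at 0.208 and Slc25a4 at 0.199. Points share a section and its cell mix, a thinned spot held on average 4.202 to 8.96 Ckm UMIs, and these weak values are given as a description. Ckmt2 and Ckb did not reach 500 thinned UMIs on every day and have no such list.

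The partners of the phosphocreatine circuit were read from lists of pathway genes. Of 12 genes of creatine synthesis, nucleotide and phosphate carriers, outer membrane channels and adenylate kinases, 9 were measured over time, and 1, Slc25a5, was called lower at d14 than at d1, at 508 against 1160.2 CPM, beside 6.07% of all genes called lower in that pair. Slc25a4, the translocator that exports ATP from the mitochondrion, was at 8816 CPM at d1, 5170 at d4, then 6727 at d7 and 8691 at d14, lowest at d4 as Ckm was and, unlike Ckmt2, not higher at d14 than at d1. The phosphate carrier Slc25a3 was at 2224, 1735, 1993 and 1979 CPM. In matrix-rich spots Slc25a4 was called lower at d4, at 2432 CPM against 5574 in the others, and at d7, at 3199 against 7054. The share of all genes called lower there was 7.53% at d4 and 4.2% at d7.

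Ckm protein docks at the M-band, the middle line of the sarcomere. Myom2, a myomesin of the M-band, was at 278 CPM at d1 and at 592, 589 and 584 CPM at d4, d7 and d14, and was called higher than at d1 on each later day, beside 4.69%, 3.45% and 7.32% of all genes. The d4 call was lost with TMM scaling, at 1.87 times d1, and the d7 call with CPM over all genes, at 1.97 times d1. Obsl1, a cytoskeletal adaptor, was called lower at d14 than at d1, at 20.9 against 43.7 CPM, beside 6.07% of genes. In matrix-rich spots Myom2 was called lower at d1, d4 and d7, at 136, 186 and 298 CPM against 292, 651 and 616 in the others, and the d7 call was lost with CPM over all genes, at 0.508. The share of all genes called lower there was 2.88% at d1, 7.53% at d4 and 4.2% at d7. Obsl1 was called higher in matrix-rich spots at d14, at 41.2 against 18.6 CPM, beside 14.8% of genes.

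Among 4 genes of other globins and of oxygen or aldehyde handling, 3 were measured. Cytoglobin, Cygb, was at 32.6, 57.8, 55.5 and 99.4 CPM and was called higher at d14 than at d1. Aldh2, the mitochondrial aldehyde dehydrogenase, was at 105, 77.0, 74.0 and 242 CPM and was called higher at d14 than at d1 and d7. Of all genes, 7.32% were called higher in the first pair and 5.04% in the second. In matrix-rich spots at d14, Cygb was called higher, at 238 CPM against 83.8, and so was the reductase Cyb5r3, at 160.2 CPM against 56.4. There, 14.8% of all genes were called higher, and Mb was lower. Neuroglobin, Ngb, had 6 UMIs in all.

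Of 16 regulators of muscle and mitochondrial genes, 9 or 10 were measured in each pair of days and 1 was called, Ppargc1a, a coactivator of mitochondrial genes, higher at d14 than at d7. That is 1 of 9 in that pair, beside 5.04% of all genes. It was at 61.1 CPM at d1, 41.2 at d4, then 44.4 at d7 and 92.2 at d14. Mef2a was at 172, 153, 155 and 131 CPM and the nuclear receptor Esrra at 154, 152, 130 and 143 CPM. In matrix-rich spots Ppargc1a was called lower at d4, at 12.0 against 45.5 CPM, and at d7, at 8.46 against 47.7 CPM. Tfam was called lower there at d14, at 20.6 against 45.2 CPM. The share of all genes called lower was 7.53% at d4, 4.2% at d7 and 2.29% at d14. Matrix-rich spots held 751747, 472925 and 437006 UMIs for CPM on these days, so such levels rest on few UMIs of a gene. Of 6 subunits of AMP-activated kinase, which senses the AMP that builds up as ATP is used, Prkag2 was called lower at d7 and d14 than at d1, at 89.0 CPM at d1, 83.1 at d4, then 44.0 at d7 and 19.98 at d14. Of all genes, 2.85% and 6.07% were called lower in these pairs, and the d7 call of Prkag2 was lost with TMM scaling, at 0.503. Prkag2 was also called lower at d14 than at d7, beside 3.51% of genes lower. Prkag1 was at 116, 109.6, 91.9 and 93.6 CPM. Prkaa2 was at 83.4, 64.5, 64.1 and 67.8 CPM, and was called lower in matrix-rich spots at d7, at 29.6 against 67.3 CPM, and at d14, at 34.3 against 71.6 CPM. At d14, Prkaa1, at 43.5 against 20.2 CPM, and Prkab2, at 73.2 against 32.8 CPM, were called higher there, beside 14.8% of all genes. Prkag2 was lower there at d1, at 34.0 against 94.5 CPM, beside 2.88% of genes lower. At d1 these spots held 294527 UMIs for CPM, so that level too rests on few UMIs.

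Of the cardiomyocyte list itself, no gene was called at d4 or d7 against d1, and 2 of 12 were called higher at d14, beside 7.32% of all genes. Of these, Myoz2 was at 2.07 times d1 and lost its call with CPM over all genes, at 1.996. Tcap, a cap protein of titin, was at 299 CPM at d1, 429 at d4, followed by 467 at d7 and 1129 at d14, and Myoz2, a Z-disc protein, at 326, 297, 342 and 675 CPM. Actc1, the cardiac actin, was at 14402, 10045, 12653 and 14269 CPM and Myl3 at 7853, 7401, 10409 and 10948 CPM. The median log2 ratio of the list at d14 against d1 was 0.11, and Ckmt2 and Mb stood at 2.55 and 1.32.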

How the data were processed

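The authors deposited raw UMI counts per gene and spot for 4 Visium heart sections, made with Space Ranger 1.3.0 on mm10 per the submitters' processing notes, which also name Seurat 4.1.1 with no role given. How the listed spots were chosen upstream is not given in the sources used here, and spot positions were not used here.

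Spots with at least 500 UMIs were kept and counts were summed over them. CPM were taken over all genes but 8 haemoglobin and 13 mitochondrially encoded ones. Ratios carry an exact conditional binomial interval, levels an exact Poisson interval and shares a Clopper-Pearson interval, at 95% and for counting error only. Code for the ratios was tested on simulated data.

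The members, the gene lists and the rules were chosen with earlier results of these data known. Named were the 6 members, Ckmt1, the 3 genes most like Ckm and Mb across spots, and of each pathway list the genes past the 2-fold rule and the 2 with the most UMIs. Of the cardiomyocyte list, those past the rule between days and the 2 with the most UMIs were named. Genes of the other cell type lists past the rule were not named as such. Which values were shown as examples was chosen after seeing them. Results for 1 listed gene are not reported here.

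Of the features, 32158 of 32285 matched GENCODE vM21 by ID, and 38 symbols shared by several IDs were left out of the lists. Python 3.11.15, numpy 2.4.6, scipy 1.17.1 and pandas 2.3.3 were used, and edgeR 4.0.16 in R 4.3.3 gave TMM factors only.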

Additional observations from a re-analysis of the deposited data

How the results depend on the processing

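The 5 CPM minimum and the 1.5-fold rule change calls only, so ratios under them could not turn. Of 510 member ratios recomputed under the alternatives, these included, 506 kept their direction. The 4 that did not were all near 1: Ckb for d4 over d1 with TMM scaling (log2 -0.07), Gamt for d7 over d1 without matrix-rich spots (-0.03), and Slc6a8 for d7 over d4 with CPM over all genes (-0.07) and without matrix-rich spots (-0.01). Ckm per cardiomyocyte UMI for d14 over d1 turned to -0.041 with the geometric mean of the list. The cause was not tested in any of these.

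The larger changes in calls of members with the settings were as follows. With TMM scaling 1 member, Ckm, was lower at d4 than at d1, beside 2.12% of genes. With a 1.5-fold rule, 1 member was higher and 1 lower at d4 against d1 (14.8% and 3.56% of genes), 2 were higher at d7 against d1 (8.34%), and 2 were higher and 1 lower at d14 against d7 (11.4% and 11.2%). In matrix-rich spots the 1.5-fold rule gave 3 members lower at d1 (6.59% of genes) and at d14 (7.24%), and 4 lower at d4 (14.1%). It gave 1 higher at d4 (21.2%) and at d7 (22.9%). The top 5% of spots gave 1 higher at d4 (15.2%) and at d7 (18.5%). The top 20% of spots gave 0 lower at d1 (1.45% of genes), d7 (0.335%) and d14 (0.580%), and 2 lower at d4 (2.27%). With CPM over all genes, Ckm was no longer called lower in matrix-rich spots at d7. The d14 call of Ckmt2, at the edge of the limit, was lost (0 members lower) with the injury list in place of the matrix list, CPM over all genes, CPM without matrix genes, a mean over spots, and without spots holding a skeletal muscle UMI other than Eno3. The last, an alternative chosen after seeing the data, left 1 member lower at d7.

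Counts over all genes moved by construction with looser rules. TMM scaling gave 224 genes higher for d4 over d1 and 54 lower for d7 over d4. The share of calls that were higher was 76.5% for d4 over d1 and 59.3% with TMM scaling, 32.3% for d7 over d4, 58.8% with TMM scaling and 19.9% with CPM over all genes, and 54.7% for d7 over d1 and 44.0% with CPM over all genes. A 5 CPM minimum gave 879 genes higher and 248 lower for d4 over d1, 527 and 467 for d7 over d1, 975 and 974 for d14 over d1, 139 and 424 for d7 over d4, and 664 and 642 for d14 over d7. The 1.5-fold rule gave 1079 and 259, 573 and 553, 1087 and 1132, 144 and 702, and 785 and 766 for the same pairs. In matrix-rich spots it gave 499 genes lower at d1, at d4 1675 higher and 1118 lower, at d7 1717 and 740, and at d14 1696 and 541. The top 20% of spots gave 105 genes lower at d1, at d4 590 higher and 175 lower, at d7 510 and 24, and at d14 613 and 41. The top 5% gave 914 lower at d4, 755 at d7 and 425 at d14, and a mean over spots 336 lower at d1.

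Without the matrix-rich spots the Ckmt2 share of creatine kinase UMIs at d4 was 22.7%, and the Ckb share was 9.21% at d4, 5.32% at d7 and 2.32% at d14. As a mean over spots the Ckb share was 11.1%, 6.56% and 3.04%. Leaving out every spot with any skeletal muscle list UMI was not run, since Eno3 is in nearly all spots and 5, 13, 4 and 15 would be left. No paired analysis was possible because each day has 1 section. Depth limits Gamt most, at 53 to 161 UMIs per section.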
